A study of Homo sapiens with 9 samples.

Results

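Red cells keep their shape because a protein mesh under the lipid bilayer is fastened to proteins that span it. Spectrin forms the mesh with short actin filaments, and protein 4.1 holds spectrin to actin. Ankyrin ties beta spectrin to band 3, the anion exchanger, with protein 4.2 at the same site. The Rh-associated glycoprotein sits in the band 3 complex, and glycophorin C anchors protein 4.1. The text follows 8 genes of this structure in K562 cells, a human erythroleukaemia line: SPTB (beta spectrin), EPB41 (protein 4.1), ANK1 (ankyrin-1), EPB42 (protein 4.2), SLC4A1 (band 3), RHAG (Rh-associated glycoprotein), GYPB (glycophorin B) and GYPC (glycophorin C). They were chosen by name as red cell membrane skeleton, glycophorin and band 3 complex genes, with earlier results of these data known. Shares over all genes are therefore set beside their values as a description only. All 8 were found among the 58347 gene IDs of the count table.

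The K562-FIRE cells of every group expressed dCas9, an MS2-Fkbp fusion and an SS18-Frb fusion, each from an EF1a promoter. dCas9 is a cutting-dead Cas9 that a guide RNA (sgRNA) leads to its site, SS18 is a subunit of the BAF chromatin remodelling complex, and rapamycin links Fkbp to Frb. The groups were HBG1 promoter sgRNA with DMSO (n = 3), HBG1 promoter sgRNA with 10 nM rapamycin (n = 3), non-targeting sgRNA with DMSO (n = 1) and non-targeting sgRNA with 10 nM rapamycin (n = 2), all treated for 24 h. The stated question was whether recruited BAF activates HBG1, and none of the 8 genes is the target. Rapamycin also inhibits mTORC1 whichever guide is present, and no group received rapamycin without the recruitment parts, so effects of the drug and of recruitment elsewhere in the genome cannot be told apart. Whether the line is 1 clone, and whether replicates were separate cultures, is not given in the sources used here, so p-values measure the spread between these libraries, which may be technical.

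Libraries held 19797409 to 31619671 counts, and all 8 genes were among the 23675 that passed the low-count filter. In the HBG1 sgRNA groups, replicate 1 stood apart from replicates 2 and 3 under both treatments. Of the erythroid markers GATA1, KLF1, TAL1, TFRC, HBZ and ALAS2, all 6 were tested. Their summed level was 3250 to 4270 CPM (counts scaled to library size) with the HBG1 sgRNA and DMSO, 3400 to 5070 with rapamycin, 3180 in the non-targeting DMSO library and 3450 to 4110 with non-targeting sgRNA and rapamycin. HBZ made up most of each sum, at 1870 to 2780 CPM with the HBG1 sgRNA and DMSO and 2050 to 3560 CPM with rapamycin. The sums thus mainly show the level of HBZ. The summed level of the 5 megakaryocyte markers was 40.4 to 74.2 CPM, of the 5 myeloid markers 35.6 to 58.5 CPM and of the 3 lymphoid markers 21.6 to 46.6 CPM. Most of the lymphoid sum was PTPRC, at 20.2 to 43.8 CPM. GP9, PF4 and ELANE had 3 counts or fewer in all 9 libraries. With rapamycin and the HBG1 sgRNA, the megakaryocyte marker ITGA2B was at 48.9 ± 11.3 against 38.0 ± 5.33 CPM and the myeloid marker LYZ at 24.3 ± 4.34 against 19.2 ± 1.48 CPM (SD, n = 3 each). Neither passed the test without the replicate block (edgeR adjusted p = 0.184 and 0.234), and both did with it (0.00517 and 0.0274). Their part in the results below was not tested.

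The regulatory letters of these genes are shown first, because erythroid genes are classically controlled by GATA1, which binds GATA sites, and by KLF1, which binds CACCC boxes. Promoter windows of RefSeq (GRCh38.p14, 250 bases before to 50 after a start site) were available for 6 of the 8 genes, with 9 windows in all. ANK1 and SLC4A1 are named only. The searched GATA words were AGATAA and its forms with T as the first letter, G as the last letter or both, on both strands. At least 1 was present in a window of all 6 genes and in 7 of the 9 windows, against 25.0% of the 35116 RefSeq windows of that length. The share is per window, and 3 of the genes have 2 windows; those of GYPB overlap and hold the same 2 GATA words, so they are counted in both. The CACCC box was searched as CCACCC on both strands and was found in 5 of the 9 windows, which belong to 5 genes, against 34.3% of all windows. The E-box CANNTG, the word bound by TAL1 and its partners, was found in 6 of 9 windows against 68.7% of all windows. A match is a run of letters and not a measured binding site. The 30-base stretches below are centred on GATA words, which are in capitals (as the word or its reverse complement), read 5′ to 3′ along the gene's strand on GRCh38; they show how the 6 genes differ in the word's spelling and flanks.
SPTB, chr14:64879982-64880011, minus strand: cccgccgcgggaCTATCTggtcccggcagc
SPTB, chr14:64879932-64879961, minus strand: atgtccctcctcAGATAAtgttatttatat
EPB41, chr1:28886899-28886928, plus strand: gacctctggggtCTATCAaagcagcccccg
EPB42, chr15:43221209-43221238, minus strand: ccagtgcagtccAGATAAcatctctgagag
EPB42, chr15:43221062-43221091, minus strand: tcctggcacaagAGATAAaatgaacagggt
RHAG, chr6:49636853-49636882, minus strand: agtcctttgttcTTATCAacatctcacagc
GYPB, chr4:144019405-144019434, minus strand: tgcctcccctgcCTATCAgctgatgatggc
GYPB, chr4:144019367-144019396, minus strand: ggtgggcctggaAGATAAcagctagtaggc
GYPC, chr2:126656082-126656111, plus strand: aatgaagtctgcCTATCTccgggccagagc

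In the first window of each gene, the first base of the word lay at -92 and -42 from the start site in SPTB, -189 in EPB41, -208 and -61 in EPB42, -31 in RHAG, -42 and -4 in GYPB and -64 in GYPC. In SPTB the upstream word also completed an E-box-GATA composite on the opposite strand (CTG, 8 free bases and a GATA word beginning with AGATA), an arrangement known for joint GATA1 and TAL1 binding, and 0.416% of all windows held a composite of this kind. The composite is in capitals here.
SPTB, chr14:64879976-64880005, minus strand: gcgggaCTATCTGGTCCCGGCAGcagcgat

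The upstream stretches of RHAG, the gene with the highest level, and of GYPB, whose level varied most between replicates with the HBG1 sgRNA, are given up to the base before the gene's first exon in GENCODE 29. Capitals mark the CACCC box of RHAG, as its reverse complement, and the GATA words of GYPB. The GATA word of RHAG lies past the GENCODE 29 start and is not in its stretch. The GYPB stretch is from its other window, where the words lie at -77 and -39 from the RefSeq start site.
RHAG, chr6:49636885-49637089, minus strand: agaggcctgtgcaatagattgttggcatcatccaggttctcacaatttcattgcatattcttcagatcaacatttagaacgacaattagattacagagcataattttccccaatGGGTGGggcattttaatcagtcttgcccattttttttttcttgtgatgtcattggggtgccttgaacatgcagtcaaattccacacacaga
GYPB, chr4:144019346-144019595, minus strand: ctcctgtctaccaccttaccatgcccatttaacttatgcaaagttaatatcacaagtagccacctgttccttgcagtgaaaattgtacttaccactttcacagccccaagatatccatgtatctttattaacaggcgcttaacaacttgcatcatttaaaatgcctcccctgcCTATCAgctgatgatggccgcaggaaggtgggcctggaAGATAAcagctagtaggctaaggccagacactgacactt

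Rapamycin against DMSO with the HBG1 sgRNA was the main comparison. SLC4A1 and RHAG rose 1.45-fold and 1.26-fold. The other members of the ankyrin and band 3 complex, ANK1 and EPB42, were 1.09-fold and 1.04-fold higher without passing the test, so 2 of its 4 genes were called. The glycophorin genes GYPC and GYPB were 1.2-fold and 1.3-fold higher, and the skeleton genes EPB41 and SPTB 1.1-fold and 1.02-fold, none of them past the test. In the fit with 1 mean per group, 2 of the 8 genes were called higher and 0 lower (edgeR quasi-likelihood test, Benjamini-Hochberg adjusted p under 0.05 over 23675 genes), beside 2.75% of all tested genes called higher and 4.05% called lower (6.8% in either direction). The log2 fold change was above 0 in 8 of 8, with a median of 0.20, against 52.3% of all genes and an all-gene median of 0.02. With the replicate number as a block over the 6 HBG1 sgRNA libraries, GYPB and GYPC were called too, which made 4 of 8 higher and 0 lower, beside 7.43% of all genes called higher and 9.62% lower in that fit (17.1% in either direction). The counts changed with the libraries used. With 1 library left out, 0 of 8 were called without DMSO replicate 2, DMSO replicate 3 or rapamycin replicate 3, and 1 without rapamycin replicate 1. The all-gene count in such fits was 664 to 1731, beside 1609 with all 9 libraries, so calls were lost outside the 8 genes too. Without both replicate 1 libraries 3 of 8 were called. The all-gene count over all 19 alternatives was 664 to 4952.

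**Figure D1:**
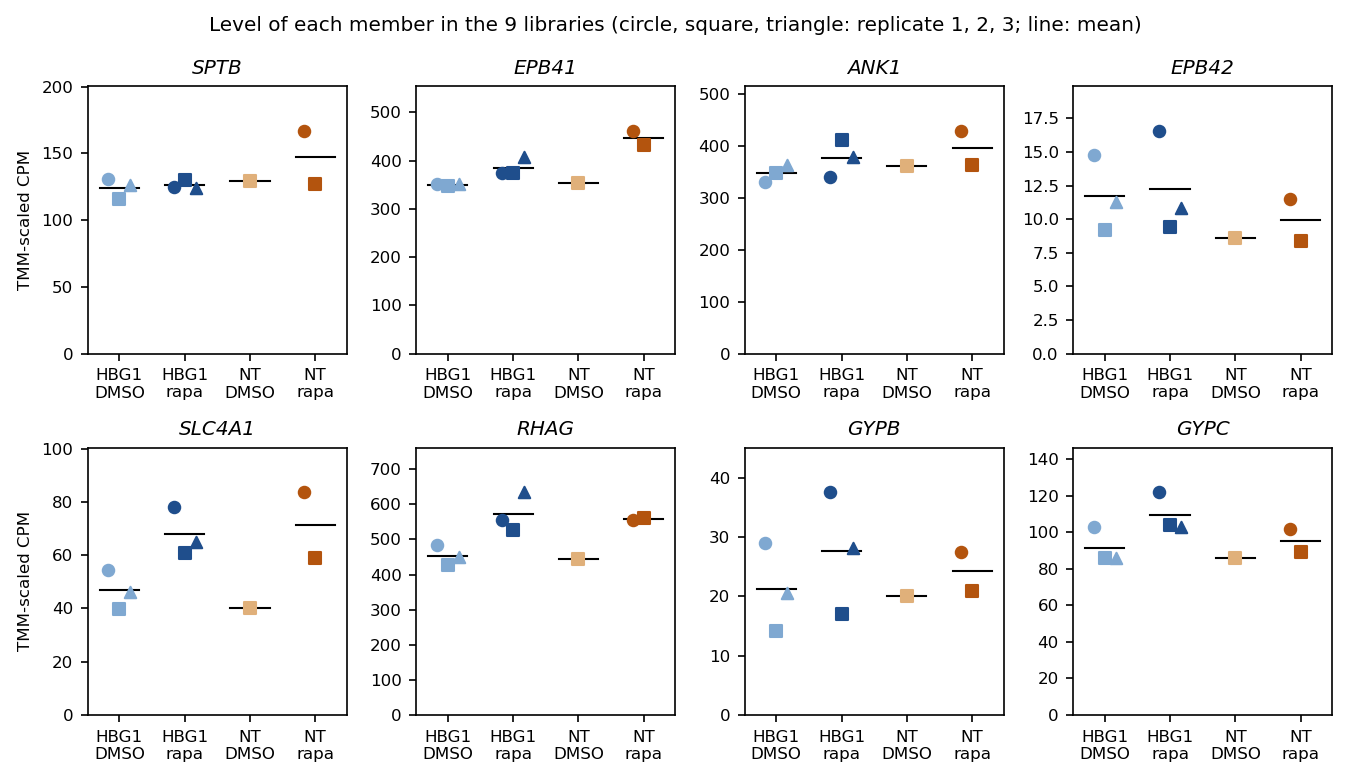
TMM-scaled CPM of each of the 8 genes (vertical axes) in every library, by guide and treatment (horizontal axes), with 1 point per library, shaped by replicate number, and a line for the group mean (rapa is rapamycin, NT non-targeting). SLC4A1, RHAG and EPB41 are the 3 genes whose HBG1 sgRNA rapamycin libraries all lie above the HBG1 sgRNA DMSO libraries.

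SLC4A1 (ENSG00000004939, chr17:44248385-44268141, minus strand, exon union 5130 bases) encodes band 3, which exchanges chloride for bicarbonate and is the main anchor of the skeleton. With the HBG1 sgRNA its level was 54.4, 39.8 and 46.1 CPM in DMSO replicates 1, 2 and 3 and 78.2, 61.0 and 64.9 CPM in rapamycin replicates 1, 2 and 3. All 3 rapamycin libraries were above all 3 DMSO libraries, and replicate 1 was the highest of both groups. The group mean rose from 46.8 ± 7.31 to 68.0 ± 9.0 CPM (SD, n = 3 each), a log2 fold change of 0.54 (SE 0.135, edgeR adjusted p = 0.0239). The same-numbered pairs moved by similar amounts, 1.44-fold, 1.53-fold and 1.41-fold, and the blocked adjusted p was 2.75e-05. The call was lost without DMSO replicate 2 (edgeR adjusted p = 0.128), DMSO replicate 3 (0.0866), rapamycin replicate 1 (0.0553) or rapamycin replicate 3 (0.0655). With the non-targeting sgRNA, SLC4A1 stood at 40.3 CPM in the DMSO library and at 83.7 and 59.0 CPM in rapamycin replicates 1 and 2. Both non-targeting rapamycin libraries were thus above every DMSO library of either guide.

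RHAG (ENSG00000112077, chr6:49605158-49636884, minus strand, exon union 2691 bases) encodes the Rh-associated glycoprotein, which the Rh proteins need to reach the membrane. Its level was 483, 427 and 451 CPM in the HBG1 sgRNA DMSO replicates and 555, 526 and 635 CPM in the rapamycin replicates, without overlap. The mean rose from 453 ± 28.0 to 572 ± 56.4 CPM (SD, n = 3 each), a log2 fold change of 0.34 (SE 0.0785, edgeR adjusted p = 0.0173). The pairs differed in size, from 1.15-fold in pair 1 to 1.41-fold in pair 3. Leaving out DMSO replicate 2 (edgeR adjusted p = 0.103), DMSO replicate 3 (0.0738) or rapamycin replicate 3 (0.104) ended the call. The non-targeting DMSO library held 444 CPM and the non-targeting rapamycin replicate 1 library 556 CPM, with replicate 2 close to it (207 and 209 CPM per kilobase of exon). These fall among the values of the HBG1 sgRNA groups of the same treatment.

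EPB42 (ENSG00000166947, chr15:43197227-43221125, minus strand, exon union 3039 bases) encodes protein 4.2, a transglutaminase relative without enzyme activity that binds band 3. Its level was 14.8, 9.18 and 11.3 CPM with DMSO and 16.6, 9.41 and 10.8 CPM with rapamycin. The groups overlapped, and replicate 1 was the highest of both. The mean was 11.8 ± 2.82 and 12.3 ± 3.79 CPM (SD, n = 3 each), a log2 difference of 0.05 (SE 0.213, edgeR adjusted p = 0.924) that turned to -0.01 without both replicate 1 libraries. The non-targeting values were 8.63 CPM with DMSO and 11.5 and 8.41 CPM with rapamycin. The EPB42 to SLC4A1 ratio of CPM per kilobase of exon was 0.459, 0.389 and 0.414 with the HBG1 sgRNA and DMSO and 0.358, 0.26 and 0.281 with rapamycin. Because EPB42 changed little, the ratio mainly restates the rise of SLC4A1, and no share over other gene pairs was computed. In the non-targeting libraries the ratio was 0.361 with DMSO and 0.232 and 0.241 with rapamycin. EPB42 shares 447 exonic bases with the same-strand gene AC068724.4, so its counts may hold fewer or more reads than its own.

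ANK1 (ENSG00000029534, chr8:41653220-41896762, minus strand, exon union 10797 bases) encodes ankyrin-1, the link from band 3 to beta spectrin. Its level was 330, 348 and 364 CPM with DMSO and 340, 411 and 379 CPM with rapamycin, with overlapping groups. The log2 difference of 0.12 (SE 0.0844, edgeR adjusted p = 0.467) lay in the same direction in 3 of 3 pairs, with 0.04, 0.24 and 0.06 on the log2 scale. The non-targeting libraries held 362 CPM with DMSO and 430 and 363 CPM with rapamycin. An antisense gene, AC113133.1, shares 842 exonic bases with ANK1, and without a stated strand setting the reads of each cannot be told apart.

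EPB41 (ENSG00000159023, chr1:28887091-29120046, plus strand, exon union 19993 bases) encodes protein 4.1. Its level was 351, 347 and 352 CPM with DMSO, the tightest group of the 8 genes with a coefficient of variation of 0.719%, and 374, 375 and 407 CPM with rapamycin. The groups did not overlap, as in 12.2% of all genes on the higher side, yet the log2 difference of 0.14 (SE 0.0672) did not pass the test (edgeR adjusted p = 0.259, blocked adjusted p = 0.0878). Together with SLC4A1 and RHAG, EPB41 made 3 of 8 genes with non-overlapping groups, and 0 of 8 did not overlap on the lower side, beside 13.1% of all genes. Its non-targeting values were 353 CPM with DMSO and 462 and 433 CPM with rapamycin, both above every HBG1 sgRNA library. EPB41 shares 619 exonic bases with TMEM200B on the opposite strand.

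SPTB (ENSG00000070182, chr14:64746283-64879907, minus strand, exon union 14796 bases) encodes the beta chain of spectrin. Its level was 131, 116 and 126 CPM with DMSO and 125, 130 and 124 CPM with rapamycin, so the rapamycin libraries lay inside the DMSO range. The log2 difference was 0.03 (SE 0.0929, edgeR adjusted p = 0.898), and the pairs differed in sign. The non-targeting libraries held 129 CPM with DMSO and 167 and 127 CPM with rapamycin, 167 CPM being the highest of the 9. SPTB shares 3410 exonic bases with other genes, nearly all with PLEKHG3 on the opposite strand, and 22.1% of its 50-base words also occur there.

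GYPB (ENSG00000250361, chr4:143996104-144019345, minus strand, exon union 1872 bases) encodes glycophorin B, carrier of the S and s blood group antigens. Its level was 29.0, 14.2 and 20.5 CPM with DMSO and 37.6, 17.1 and 28.1 CPM with rapamycin. The groups overlapped widely, with replicate 1 highest and replicate 2 lowest in both, and the coefficients of variation of 35.2% and 37.3% were the largest of the 8 genes in those groups. Without the block the log2 difference was 0.38 (SE 0.246, edgeR adjusted p = 0.426). Within same-numbered pairs rapamycin was higher by 1.3-fold, 1.2-fold and 1.37-fold, and with the block GYPB rose by 0.38 on the log2 scale (SE 0.0955, edgeR adjusted p = 0.00985). In the non-targeting libraries it was 20.1 CPM with DMSO and 27.5 and 21.0 CPM with rapamycin, a ratio of 1.05 in the same-numbered pair. GYPB has close relatives, GYPE among them, and 12.7% of its 50-base words occur in at least 1 other gene (1.05% in GYPE), so its counts are uncertain. GYPE had 31.5 ± 7.09 and 35.7 ± 11.6 CPM (SD, n = 3 each; log2 difference 0.17, edgeR adjusted p = 0.65, blocked 0.213).

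GYPC (ENSG00000136732, chr2:126655933-126696670, plus strand, exon union 3812 bases) encodes glycophorin C, the membrane anchor of protein 4.1. No 50-base word of it occurs in another gene. Its level was 103, 85.9 and 86.0 CPM with DMSO and 122, 104 and 103 CPM with rapamycin. Only the DMSO replicate 1 library reached the rapamycin range, and within the 3 pairs rapamycin was higher by 1.19-fold, 1.22-fold and 1.19-fold, the most even pair changes of the 8 genes. The log2 difference of 0.26 (SE 0.095) did not pass without the block (edgeR adjusted p = 0.119), and GYPC rose by 0.27 (SE 0.0605, edgeR adjusted p = 0.00426) with it. The non-targeting libraries held 86.2 CPM with DMSO and 102 and 89.0 CPM with rapamycin, a ratio of 1.03 in the same-numbered pair.

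**Figure D2:**
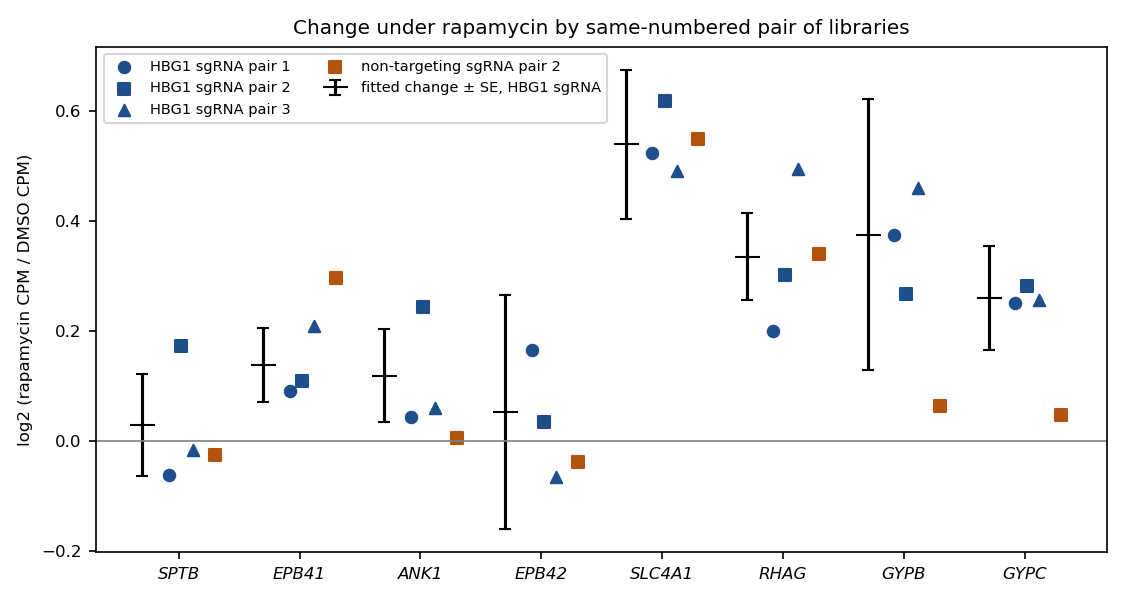
Log2 ratio of rapamycin to DMSO CPM (vertical axis) for each gene (horizontal axis), with 1 point for each of the 3 HBG1 sgRNA pairs and 1 for the non-targeting pair, and a black dash with bars for the fitted HBG1 sgRNA change ± SE. SLC4A1 lies between 0.49 and 0.62 in all 4 pairs, whereas SPTB and EPB42 have points on both sides of 0.

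Within the 3 HBG1 sgRNA pairs, 6 of 8 genes (all but SPTB and EPB42) were higher with rapamycin in every pair, against 22.6% of all genes, and 0 of 8 were lower in every pair, against 22.4%. For GYPB and EPB42 the gap between replicate 1 and the mean of the other replicates was wider, under both treatments, than that between the treatments. For SLC4A1 it was narrower. GYPB was 1.68-fold and 1.67-fold higher in replicate 1 than in the mean of replicates 2 and 3 with DMSO and rapamycin, EPB42 1.44-fold and 1.64-fold, SLC4A1 1.27-fold and 1.24-fold and GYPC 1.2-fold and 1.18-fold. These 4 of 8 were at least 1.1-fold higher under both treatments, against 16.4% of all genes, whereas SPTB, EPB41, ANK1 and RHAG were between 0.861 and 1.1. GYPE stood at 1.41 and 1.65 on the same measure. What sets replicate 1 apart is not given in the sources used here.

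With the non-targeting sgRNA, rapamycin against its single DMSO library gave log2 differences above 0 in 8 of 8 genes, against 53.1% of all genes, with no test because that group is 1 library. SLC4A1 had the largest, 0.82 (1.77-fold), followed by EPB41 at 0.34, RHAG at 0.33, GYPB at 0.28, EPB42 at 0.21, SPTB at 0.19, GYPC at 0.15 and ANK1 at 0.13. In the same-numbered pair alone, SLC4A1 was 1.46-fold and RHAG 1.27-fold higher, close to the mean changes with the HBG1 sgRNA, and EPB41 was higher by 0.30 on the log2 scale. ANK1, GYPB and GYPC differed by 0.01, 0.06 and 0.05 in that pair, and SPTB and EPB42 lay below 0, at -0.02 and -0.04, so 6 of 8 were above 0 there.

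Between guides under rapamycin, 0 of 8 genes were called (edgeR adjusted p under 0.05), beside 0.0296% of all genes, which is 7 genes. EPB41 was the 1 gene with an unadjusted p under 0.05, beside 6.27% of all genes: it was lower with the HBG1 sgRNA by 0.22 on the log2 scale (SE 0.0748, edgeR adjusted p = 0.773). The others lay between -0.215 for SPTB and 0.29 for EPB42, and SLC4A1 and RHAG were at -0.07 and 0.03. DESeq2 also called 0 of 8. Under DMSO, where the non-targeting group is 1 library, differences ran from -0.06 to 0.45 with no test.

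Whether the rapamycin change itself differed between guides was tested as an interaction. It called 0 of 8 genes, beside 0.00422% of all genes, which is 1 gene, and 0 of 8 had an unadjusted p under 0.05, beside 2.86% of all genes; DESeq2 called 0. The interaction was -0.29 (SE 0.245) for SLC4A1, 0.00 (SE 0.141) for RHAG, 0.10 (SE 0.446) for GYPB, 0.11 (SE 0.172) for GYPC, -0.21 (SE 0.122) for EPB41, -0.01 (SE 0.152) for ANK1, -0.16 (SE 0.168) for SPTB and -0.16 (SE 0.393) for EPB42. With standard errors of this size and 1 gene called among all, differences as large as the rapamycin change of SLC4A1 could go uncalled for any of the 8. These values do not show that the guides act alike.

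Levels of different genes were set side by side as CPM per kilobase of exon union. With the HBG1 sgRNA and DMSO the order was RHAG at 168 ± 10.4, ANK1 at 32.2 ± 1.56, GYPC at 24.0 ± 2.55, EPB41 at 17.5 ± 0.126, GYPB at 11.3 ± 3.98, SLC4A1 at 9.12 ± 1.43, SPTB at 8.39 ± 0.527 and EPB42 at 3.87 ± 0.929 (SD, n = 3). RHAG stood far above the rest in all 9 libraries. The ranges of GYPB, SLC4A1 and SPTB overlapped, so their order is within their spread. With the HBG1 sgRNA and rapamycin, the ranges of ANK1 and GYPC overlapped, at 31.5 to 38.1 and 26.9 to 32.1, as did those of GYPB and SLC4A1, whereas SPTB, at 8.41 to 8.8, lay below both. The order was the same with the HBG1 sgRNA and rapamycin. SPTB (8.7) was above SLC4A1 (7.86) in the non-targeting DMSO library, and SLC4A1 (13.9) was above GYPB (12.9) in the non-targeting rapamycin mean. Dividing by the exon union understates genes with many isoforms, such as EPB41 with 41 annotated transcripts.

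**Figure D3:**
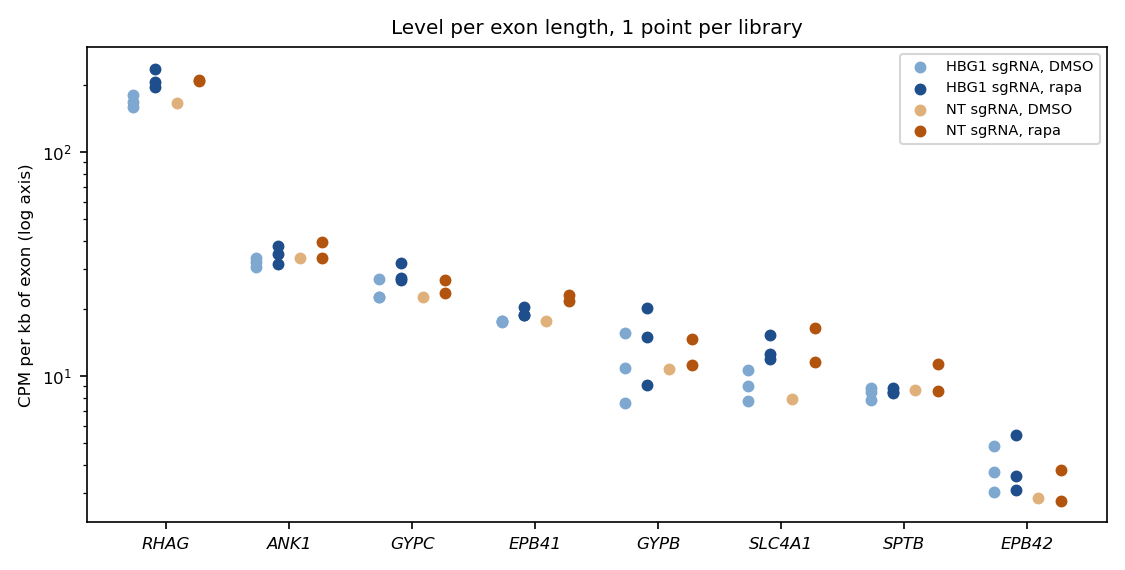
Level in CPM per kilobase of exon union (vertical log axis) of each gene (horizontal axis), coloured by group, with 1 point per library. RHAG lies at 159 or above in every library, and EPB42 is the lowest gene in every group.

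The wider red cell membrane was described with 34 further genes, of which 33 were tested (SLC14A1 was not). In the fit without the block 7 were called higher, 0 lower and 26 not called, beside the 2.75% and 4.05% of all genes given above, with a median log2 fold change of 0.19. Without both replicate 1 libraries 10 were called higher and 1 lower. Leaving out 1 library at a time gave 2 to 7 higher (2 without DMSO replicate 2 or DMSO replicate 3, and 3 without rapamycin replicate 3). The all-gene count, in either direction, was 664 to 1731 with 1 library left out, beside 1609 in the main fit. Over all 19 alternatives it was 664 to 4952. By fold the first was ACKR1, the Duffy antigen receptor, with 0 counts in the 3 DMSO libraries and 8, 5 and 10 counts with rapamycin, at least 2.79-fold higher against a floor of 3 counts per library (edgeR adjusted p = 0.0471). ACKR1 had 4 counts in the non-targeting DMSO library and 23 and 2 with rapamycin. Only the library with 23 counts took ACKR1 past the low-count filter. That is a rapamycin library, so the place of ACKR1 among the 7 called is not support for a rapamycin change. ACKR1 was tested in 13 of the 19 alternatives and called in 4, and its call was lost without any 1 of the 6 HBG1 sgRNA libraries (edgeR adjusted p 0.0681 to 0.131). DMTN, encoding dematin, an actin-bundling protein of the skeleton junctions, rose from 29.8 ± 2.46 to 48.7 ± 7.45 CPM (SD, n = 3 each, as for the other genes of this list; log2 fold change 0.71, edgeR adjusted p = 0.00156). ICAM4, the Landsteiner-Wiener blood group protein, rose from 32.9 ± 4.96 to 51.2 ± 5.04 CPM (log2 fold change 0.64, edgeR adjusted p = 0.0027). Both kept their calls under all 19 alternatives run.

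RHCE, the Rh C and E antigen protein that assembles with RHAG, rose from 28.4 ± 6.01 to 43.4 ± 9.21 CPM (log2 fold change 0.60, edgeR adjusted p = 0.028). It has a near-identical copy, RHD, and the groups overlap at 34.9 and 35.3 CPM. TMOD1, tropomodulin, which caps the actin filaments, rose from 94.8 ± 12.8 to 123 ± 11.5 CPM (SD, n = 3 each; log2 fold change 0.38, edgeR adjusted p = 0.0314). RHCE lost its call without DMSO replicate 2 (edgeR adjusted p = 0.123), DMSO replicate 3 (0.13), rapamycin replicate 1 (0.0793) or rapamycin replicate 2 (0.0573). TMOD1 lost its call without DMSO replicate 2 (edgeR adjusted p = 0.158), DMSO replicate 3 (0.129), rapamycin replicate 1 (0.0717) or rapamycin replicate 3 (0.0908). The other 2 called genes, named after their values were seen, were FLOT2 (0.29, edgeR adjusted p = 0.0194), a lipid raft protein, and MPP1 (0.24, edgeR adjusted p = 0.032), which binds glycophorin C and protein 4.1. Both lost their calls without DMSO replicate 2 (edgeR adjusted p = 0.095 and 0.128), DMSO replicate 3 (0.104 and 0.116) or rapamycin replicate 3 (0.0838 and 0.114), and MPP1 also without non-targeting rapamycin replicate 1 (0.0501) or 2 (0.052). With the replicate block 14 of 32 were called higher and 2 lower, beside 7.43% and 9.62% of all genes in that fit. The lower 2, also named after their values were seen, were STOM, encoding stomatin (-0.32, edgeR adjusted p = 0.00233), and ADD2, encoding beta adducin (-0.29, edgeR adjusted p = 0.00214).

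**Figure D4:**
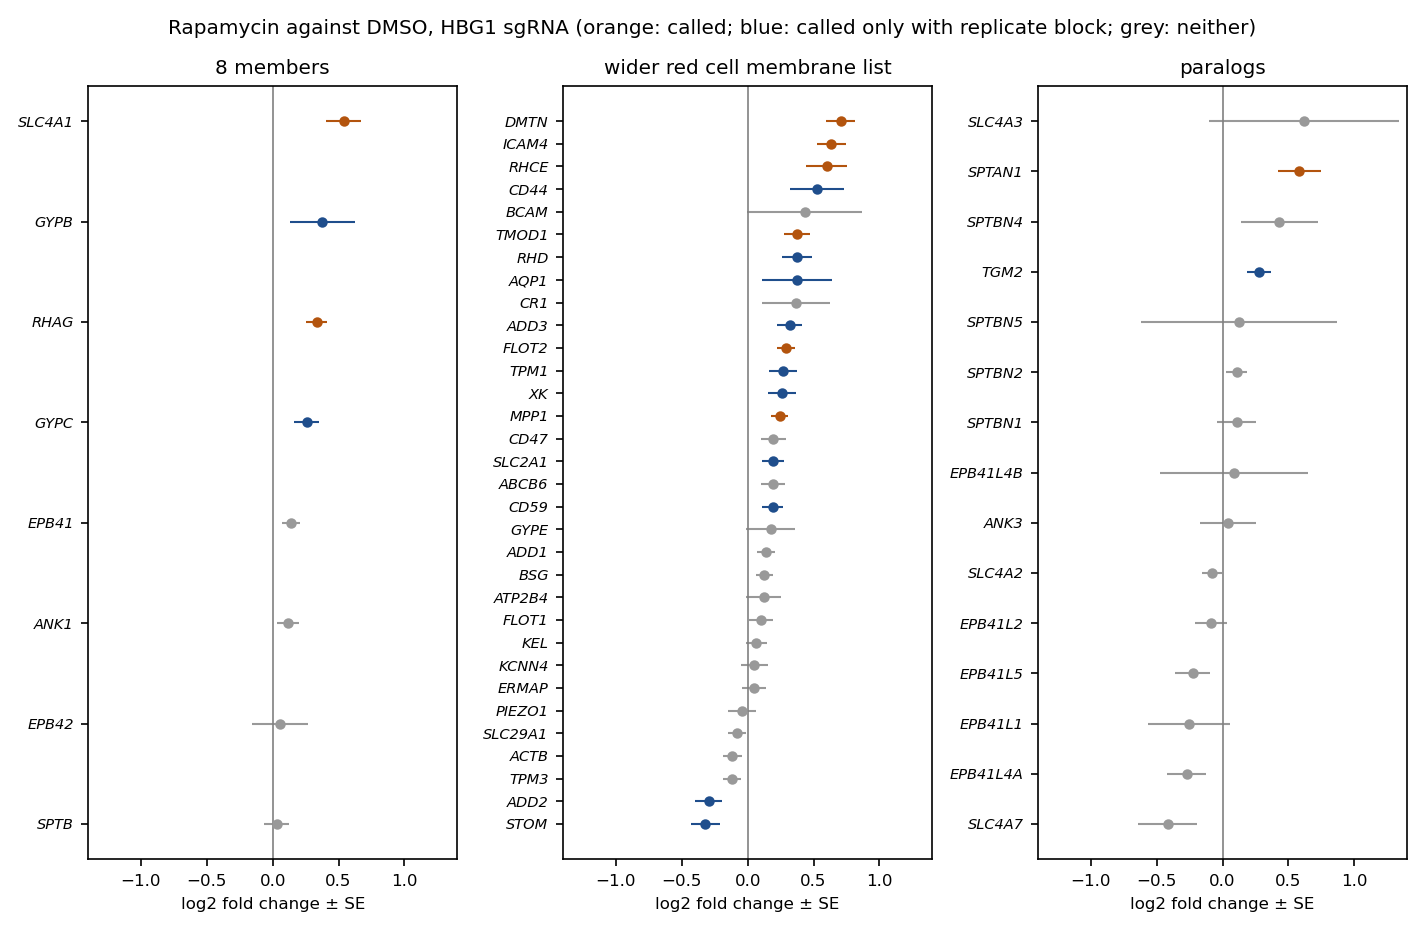
Log2 fold change of rapamycin against DMSO with the HBG1 sgRNA (horizontal axis) for the 8 genes, the wider red cell membrane list and relatives used outside red cells, with 1 point and SE bars per tested gene, orange where called, blue where called only with the replicate block and grey otherwise. ACKR1, at 0 counts in the HBG1 sgRNA DMSO libraries, is left out of the plot. The 8 genes of the report all lie above 0. Of the 33 tested genes of the wider list, ACKR1 included, 27 were above 0 and 6 below.

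Relatives of the 8 genes that serve outside red cells were described for contrast. Of 19 listed, 15 were tested, 1 was called higher and 0 lower, beside 2.75% and 4.05% of all genes, and the median log2 fold change was 0.09. With the replicate block 2 of 14 were called higher and 0 lower, beside 7.43% and 9.62% of all genes, with TGM2, a tissue transglutaminase named after its values were seen, joining (0.29, edgeR adjusted p = 0.0148). The called gene was SPTAN1, the non-erythroid alpha spectrin, which rose from 12.6 ± 2.95 to 18.8 ± 1.82 CPM (SD, n = 3 each; log2 fold change 0.58, edgeR adjusted p = 0.0399) and was called in 10 of 19 alternatives. Its call was lost without DMSO replicate 1 (edgeR adjusted p = 0.123), DMSO replicate 2 (0.114), any 1 of the 3 rapamycin libraries (0.0655 to 0.109) or non-targeting rapamycin replicate 2 (0.0506). ANK2 had 0 counts in all 9 libraries, and EPB41L3 and RHCG had 3 or fewer in each.

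Of the 6 erythroid markers, 2 were called higher and 1 lower in the fit without the block, beside 2.75% and 4.05% of all genes. GATA1, the erythroid transcription factor, rose from 198 ± 13.5 to 246 ± 24.2 CPM (log2 fold change 0.31, edgeR adjusted p = 0.0326), and ALAS2, the first enzyme of erythroid haem synthesis, from 109 ± 22.3 to 175 ± 37.7 CPM (log2 fold change 0.68, edgeR adjusted p = 0.0127). TFRC, the transferrin receptor, fell by 0.28 on the log2 scale (edgeR adjusted p = 0.0183). KLF1 was at 160 ± 18.3 and 166 ± 21.3 CPM (SD, n = 3 each) and did not pass. TAL1 (log2 difference 0.04, edgeR adjusted p = 0.85) and HBZ, embryonic zeta globin (0.28, edgeR adjusted p = 0.372), did not pass either. With the replicate block HBZ rose by 0.27 (edgeR adjusted p = 0.00294), which made 3 of 6 higher and 1 lower, beside 7.43% and 9.62% of all genes. In the fit without the block, all 3 calls were lost without DMSO replicate 2 (edgeR adjusted p 0.0761 to 0.146) or DMSO replicate 3 (0.0576 to 0.13). The GATA1 call was also lost without rapamycin replicate 1 (0.0853), rapamycin replicate 3 (0.0567) or non-targeting rapamycin replicate 2 (0.0501), and the TFRC call without rapamycin replicate 3 (0.0741). Their part in the values of SLC4A1 and RHAG was not tested, and a change in the share of more mature cells and a change per cell cannot be told apart in bulk RNA.

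Over the 9 libraries, the genes most like each of the 8 in log2 CPM were compared among 15178 genes, as a description across libraries that share depth and scaling. SLC4A1 was most like PINK1-AS (Pearson r = 0.977) and TMOD1 (0.973), RHAG most like TAX1BP1 (0.965) and HSD17B11 (0.959), and EPB42 most like ENO1P1 (0.952) and AC006547.1 (0.947). GYPC was most like TATDN3 (0.985) and GUK1 (0.968), and GYPB most like PPIC (0.97) and BTNL9 (0.964). EPB41 was most like FAM20B (0.978) and TMEM9B-AS1 (0.977), ANK1 most like ALG10B (0.959) and PRRC2B (0.937), and SPTB most like AC078846.1 (0.914) and LLPH-DT (0.9). Among the 8 themselves, r ran from -0.351 for EPB42 with ANK1 to 0.826 for RHAG with SLC4A1.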

How the data were processed

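RNA was measured in 9 K562-FIRE libraries grouped by their titles. The authors deposited 1 table of raw counts for Ensembl genes. Per the submitters' processing notes, STAR 2.7.3a, featureCounts, Subread 2.0.0, R 4.1.2, limma 3.34.9, edgeR 3.24.0 and the build GRCh38/hg38 were used, with roles not given. The annotation release, strand setting and treatment of multi-mapping reads are not given in the sources used here, so overlapping genes and near-identical copies are uncertain. Positions and exon lengths came from GENCODE 29, in which 58039 of 58347 IDs were found and 308 were not.

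From the deposited counts, edgeR 4.0.16 in R 4.3.3 kept genes passing filterByExpr at a minimum count of 10 (23675 genes), scaled libraries by TMM (factors 0.977 to 1.02) and fitted all 9 libraries in 1 quasi-likelihood model with 1 mean per group. CPM in the text is TMM-scaled and computed here. Genes were called at a Benjamini-Hochberg adjusted p under 0.05 over all tested genes, and SE was taken as log2 fold change over the root of F. The group of 1 library takes its spread from the other groups. The fit was also run on simulated counts with known changes and no replicate effect, so that run does not cover the gap of replicate 1. Replicates were not repeats of 1 library: Pearson r of log2 CPM was 0.969 to 0.98 and the chi-square statistic per gene 4.74 to 18.6.

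Replicate numbers from the titles were taken to pair HBG1 sgRNA libraries, because deviations from group means correlated within the 3 pairs (r = 0.553, 0.278 and 0.231 over 11498 genes). Between different numbers r was -0.407 to -0.324 where replicate 1 was one of them, and 0.194 and 0.258 between replicates 2 and 3, so the data set replicate 1 apart and do not separate numbers 2 and 3. The members and lists were chosen with earlier results of these data known. All 8 members were named. Some genes of the wider list are not reported here. From the wider and relatives lists, at most the 5 highest and 5 lowest called genes were named, with GYPE to read GYPB, and for each member the 2 genes of highest Pearson r among genes with mean log2 CPM of at least 1. Alternatives were RLE and upper quartile scaling, no filter, DESeq2 1.42.0, the block, 6 libraries only, an additive model and leaving out each library. Added after seeing the data were leaving out pair 1, the block over pairs 2 and 3, and the additive model with a block.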

Additional observations from a re-analysis of the deposited data

How the results depend on the processing

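The number of the 8 genes called in the HBG1 sgRNA groups, rapamycin against DMSO, was 2, and it was 4 with no low-count filter, 4 with the replicate block, 4 with the block over pairs 2 and 3, and 5 in the additive model with the block within each guide, where EPB41 joined. Leaving out 1 library at a time gave 0 to 3. RLE scaling, upper quartile scaling, DESeq2 and the 6 HBG1 sgRNA libraries alone gave 2, and the additive model and leaving out pair 1 gave 3. Over all genes the count was 1609 (6.8% of those tested), with a range of 664 to 4952. It was 3441 with the block (17.1% of the genes tested there), 1612 with RLE scaling and 1492 with upper quartile scaling. Leaving out 1 library at a time gave 664 to 1731 over all genes. The all-gene count thus moved with the setting too, and a change in the count among the 8 is not particular to them. SLC4A1 was called in 15 of 19 alternatives and RHAG in 16 of 19, with log2 fold changes of 0.429 to 0.665 and 0.255 to 0.405. GYPC was called in 6 of 19 and GYPB in 4. Between guides the all-gene count was 7 and ranged from 3 to 91 (91 with no filter, 13 with DESeq2, 21 with the block, 37 without pair 1), and for the interaction it was 1 and ranged from 0 to 8; the 8 genes gave 0 in all alternatives run.

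Some signs reversed, and the cause was not tested. For rapamycin against DMSO these were EPB42 (-0.00902 without pair 1, -0.0124 in the block over pairs 2 and 3, leave-one-out -0.216 to 0.259), SPTB (leave-one-out -0.0181 to 0.0709) and GYPE (-0.1 to 0.367). Between guides they were GYPB (-0.0922 without pair 1, leave-one-out -0.0933 to 0.424), RHAG (-0.00865 with the block, leave-one-out -0.0485 to 0.0837), SPTB (-0.402 to 0.00247), ANK1 (-0.188 to 0.0549) and SLC4A1 (-0.3 to 0.206). For the interaction they were, with the block within each guide, SPTB 0.0559, ANK1 0.11, EPB42 0.0853 and RHAG -0.0068, without pair 1 ANK1 0.0198, and by leave-one-out EPB42 (-0.426 to 0.0919), RHAG (-0.0767 to 0.0622), GYPB (-0.177 to 0.404), ANK1 (-0.128 to 0.115) and SPTB (-0.349 to 0.0559). Groups of 3 libraries or fewer, with 1 non-targeting DMSO library, limit the precision, and ACKR1 rests on 0 to 23 counts a library.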
